A study of Mus musculus with 7 samples.

Results

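Voltage-gated sodium channels are the proteins that open on depolarisation and carry the upstroke of the action potential along sensory axons. Transcripts of 9 of their genes, 6 for pore-forming alpha subunits (Scn1a, Scn3a, Scn8a, Scn9a, Scn10a and Scn11a) and 3 for accessory beta subunits (Scn2b, Scn3b and Scn4b), were read from a table of 54309 genes by gene symbol. Each of the 9 symbols matched 1 row. The 7 samples were ganglia from C57BL/6 mice aged 6 to 8 weeks and labelled male (sex-linked transcripts of ZT20 replicates 3 and 4, and Xist also in ZT20 replicate 2, went against that label), taken 72 h after a sciatic nerve injury made at Zeitgeber time 20 (ZT20, 4 samples) or ZT8 (3 samples), times counted in hours from lights on. All groups carried the injury, so no uninjured level is analysed here, and time of injury and time of dissection cannot be told apart. Lumbar ganglia L4 to L6 were dissociated with enzymes and enriched for neurons on an albumin gradient before RNA was taken. How many animals made up a sample is not stated, so p-values describe the spread between these samples, which may be partly technical.

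Each alpha subunit is a single long protein that forms the sodium pore, and the beta subunits are short membrane proteins that bind it and shape its gating and its placement in the membrane. In dorsal root ganglia, small pain-sensing neurons are known for Nav1.7 (Scn9a), Nav1.8 (Scn10a) and Nav1.9 (Scn11a), and large myelinated neurons for Nav1.1 (Scn1a) and Nav1.6 (Scn8a). Nav1.3 (Scn3a) is mainly an embryonic channel known to return in injured sensory neurons. The alpha subunits fall into those blocked by the toxin tetrodotoxin and those that resist it, and a single residue in the pore of the first domain separates these classes.

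The coding stretch around that residue shows how alike the alpha subunits are and where the classes part. It is given from GENCODE M21 transcripts for 5 of the 6 alpha members, found as a unique translated match to threonine, glutamine, aspartate, any residue and tryptophan, and the capitals mark the codon of the toxin residue.
Scn3a: atgactcaagacTACtgggagaacctttac
Scn8a: atgactcaggacTACtgggagaacttatac
Scn9a: atgactcaggacTACtgggagaacctttat
Scn10a: atgacgcaggacTCCtgggaacggctgtac
Scn11a: atgactcaagacTCCtgggagaagctttat
The marked codon encodes serine in the tetrodotoxin-resistant Scn10a and Scn11a and tyrosine in Scn3a, Scn8a and Scn9a. Of 30 bases, Scn3a shared 28 with Scn9a, Scn8a and Scn11a each shared 27, and Scn10a shared 22. Values of such related genes depend on how reads were assigned between them. Salmon 1.6.0 is among the tools in the submitters' notes, but its role and settings are not given in the sources used here. Exons of Scn9a also overlap those of Gm13629, an antisense gene, in GENCODE M21, and for Scn9a reads of the 2 strands may not have been told apart.

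Values are in TPM, a measure of transcript abundance that is divided by transcript length and sums to 1000000 in every sample. The sequencing depth is unknown. Levels of genes of unlike length are compared with a limit, as the difference between the groups still moved with length (given below). Some libraries stood apart. Genes above 0 TPM numbered 24192 to 25238 at ZT20 and 18297 to 22973 at ZT8, with the lowest number in ZT8 replicate 2. The Y-linked genes Ddx3y, Eif2s3y and Uty were listed at 0 in ZT20 replicates 3 and 4, although all samples are labelled male. Xist was at 1.08 to 2.30 TPM in ZT20 replicates 2, 3 and 4 against at most 0.00467 TPM elsewhere. No ZT8 sample showed either pattern, so sex as read from these transcripts goes partly with the group and cannot be fully told apart from it. Library identifiers were numbers at ZT20 and letters at ZT8, and a batch behind either scheme cannot be told apart from the group. All 12 neuron markers and all 10 nociceptor markers listed for this work were above 0 in the data.

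At ZT20, 5 of the 9 genes were higher than at ZT8: the alpha subunits Scn8a, Scn9a, Scn10a and Scn11a and the beta subunit Scn4b. Their mean TPM was 1.79 to 2.58 times that at ZT8. No member was called lower, against 3.61% of all tested genes. Differences of Scn1a, Scn3a, Scn2b and Scn3b were positive and did not pass an adjusted p-value of 0.05 (limma on log2(TPM + 1), Benjamini-Hochberg over 14800 genes). In the same fit 12.8% of all tested genes were called higher at ZT20, against 55.6% of the members. For the same 5 members no ZT8 sample reached the ZT20 range, as for 24.5% of all tested genes. The exact two-sided permutation p of those genes taken singly was 0.0286, the smallest that 35 splits allow, except for Scn4b (0.0571). Such a p follows largely from the lack of overlap, so it restates that result and is not further evidence. On the log2 scale the median difference was 0.23 over all tested genes and 1.02 over the 9 members. The genes were chosen with earlier results of these data known, so the count is a description of the family. The calls depended on the treatment of the values: with each sample's trend of TPM with transcript length and GC content removed, 0 of the 9 members passed (2 had an unadjusted p-value under 0.05), while 3.56% of all tested genes were still called higher. Without ZT20 replicates 3 and 4, whose sex-linked transcripts went against their label, limma called 0 members and 0 of all genes (7 members and 2425 genes had an unadjusted p-value under 0.05), and all 9 differences stayed positive. In that fit of 5 samples the log2 difference was 0.81 for Scn8a, 0.77 for Scn9a, 0.66 for Scn10a, 1.05 for Scn11a and 0.97 for Scn4b, with limma adjusted p-values of 0.171 to 0.258.

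**Figure D1:**
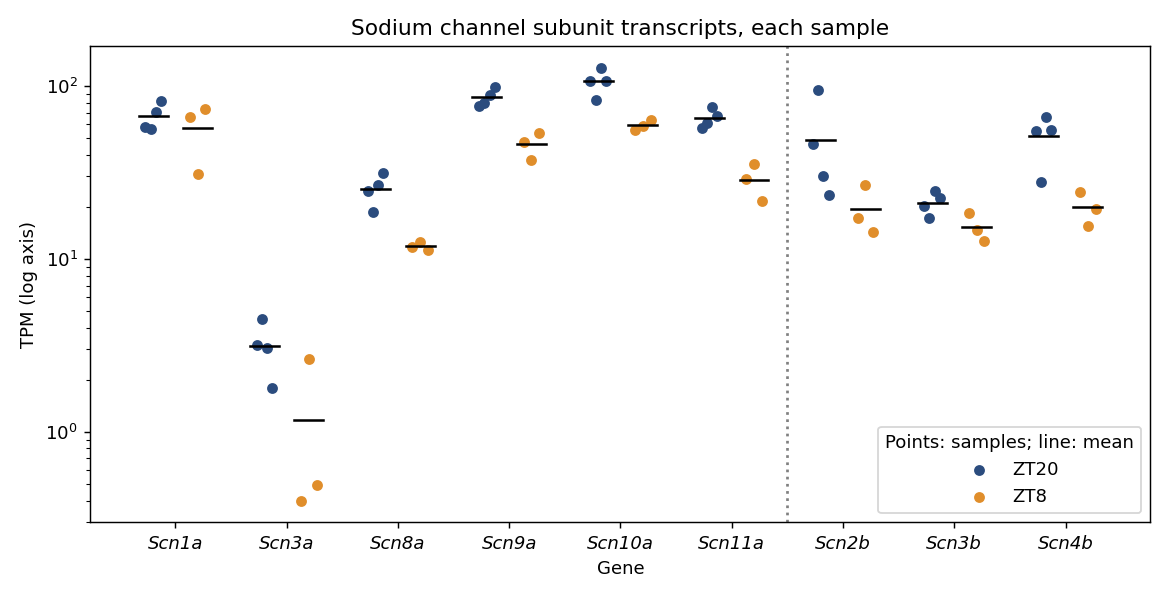
TPM of the 9 genes on a log axis, 1 point per sample with 4 ZT20 and 3 ZT8 samples and a line at each group mean, alpha subunits left of the dotted line and beta subunits right of it. The groups do not overlap for Scn8a, Scn9a, Scn10a, Scn11a and Scn4b, and 1 of the 3 ZT8 samples stands apart for Scn1a and Scn3a.

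Of the subunits best known from nociceptors, Scn10a had the highest mean level of the 9 genes in both groups. Scn10a, which encodes Nav1.8, the channel that carries most of the action potential current in nociceptor cell bodies, measured 107, 82.5, 128 and 107 TPM at ZT20 and 55.5, 59.0 and 63.3 TPM at ZT8, in the order of the replicate numbers here and for every gene that follows. Every ZT20 sample was above the highest ZT8 sample. Scn10a averaged 106 TPM at ZT20 (SD 18.5, n = 4) against 59.3 TPM at ZT8 (SD 3.89, n = 3), and the log2 difference was 0.81 (standard error 0.16, limma adjusted p = 0.0137). Without ZT20 replicate 3 the limma adjusted p was 0.0505.

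Scn9a encodes Nav1.7, whose loss abolishes pain in people and which amplifies small depolarisations. Its levels were 76.3, 79.8, 88.9 and 98.4 TPM at ZT20 and 47.2, 37.1 and 53.4 TPM at ZT8. The groups did not overlap. Mean levels of 85.9 TPM at ZT20 (SD 9.90, n = 4) and 45.9 TPM at ZT8 (SD 8.26, n = 3) differed by 0.90 on the log2 scale (95% interval 0.53 to 1.26, limma adjusted p = 0.0107). Scn9a was also called in every fit that left out 1 replicate.

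Scn11a encodes Nav1.9, a slowly inactivating channel that sets the resting excitability of nociceptors. It was at 56.9, 61.3, 75.9 and 66.8 TPM at ZT20 and at 28.9, 35.4 and 21.6 TPM at ZT8. Again no ZT8 sample reached the ZT20 range. The log2 difference of 1.18 (standard error 0.19, limma adjusted p = 0.00769) was called, also in every fit that left out 1 replicate. Scn10a and Scn11a follow each other among the protein-coding genes of mouse chromosome 9 in the RefSeq table for GRCm38.

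Of the channels of myelinated neurons, Scn8a passed and Scn1a did not. Scn8a, which encodes Nav1.6, the main channel of mature nodes of Ranvier, was at 24.5, 18.8, 26.8 and 31.5 TPM at ZT20 and at 11.7, 12.5 and 11.2 TPM at ZT8. The ZT8 samples lay close together and below every ZT20 sample. Scn8a averaged 25.4 TPM at ZT20 (SD 5.31, n = 4) against 11.8 TPM at ZT8 (SD 0.680, n = 3). The log2 difference was 1.02 (limma adjusted p = 0.0126), and without ZT20 replicate 3 its limma adjusted p was 0.0544.

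Scn1a, which encodes Nav1.1, was at 57.6, 56.5, 70.4 and 82.0 TPM at ZT20 and at 66.5, 30.8 and 73.7 TPM at ZT8. ZT8 replicate 2 was below every other sample, while ZT8 replicates 1 and 3 lay inside the ZT20 range. The log2 difference was 0.30 with a 95% interval from −0.37 to 0.96 (limma adjusted p = 0.491), an interval that includes both no difference and one as large as that of Scn9a. Without ZT8 replicate 2 it was −0.086 (limma adjusted p = 0.754), and the length and GC correction gave −0.33 (limma adjusted p = 0.492).

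Scn3a, the gene of Nav1.3, had the lowest level of the 9 genes. It was at 3.16, 4.50, 3.04 and 1.79 TPM at ZT20 and at 0.400, 2.62 and 0.493 TPM at ZT8. ZT8 replicate 2 fell inside the ZT20 range, and the other ZT8 samples were below every ZT20 sample. With a log2 difference of 1.03 (95% interval 0.12 to 1.94) Scn3a missed the adjusted threshold (limma adjusted p = 0.106), and it passed only in the fit without ZT8 replicate 2 (1.47, limma adjusted p = 0.0149). At such levels log2(TPM + 1) understates the difference, which was 1.72 with a pseudocount of 0.1. It was 0.38 after the length and GC correction (limma adjusted p = 0.567) and 0.62 relative to the mean of neuron markers.

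Among the beta subunits, Scn4b rose and the other members did not pass. Scn4b encodes the beta-4 subunit, linked to the alpha subunit by a disulphide bond and proposed to take part in resurgent sodium current. It was at 55.1, 27.8, 65.9 and 55.8 TPM at ZT20 and at 24.5, 15.5 and 19.5 TPM at ZT8. ZT20 replicate 2 was the nearest to the ZT8 samples and still above them. Means of 51.2 TPM at ZT20 (SD 16.3, n = 4) and 19.8 TPM at ZT8 (SD 4.50, n = 3) gave a log2 difference of 1.28 (95% interval 0.61 to 1.95, limma adjusted p = 0.0235). Leaving out ZT20 replicate 1, 3 or 4 or ZT8 replicate 3 moved its limma adjusted p to 0.0645, 0.0765, 0.0752 and 0.0579.

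Scn2b encodes beta-2, the other subunit bound by a disulphide bond, and its gene is next to Scn4b among protein-coding genes. It was at 46.1, 95.0, 30.0 and 23.5 TPM at ZT20 and at 17.3, 26.7 and 14.2 TPM at ZT8. ZT20 replicate 2 was the highest sample, in contrast to Scn4b, for which that replicate was the lowest of its group, and the groups overlapped. The log2 difference was 1.12 with a 95% interval from 0.12 to 2.12 (limma adjusted p = 0.11). It was 0.74 without ZT20 replicate 2 and 0.67 after the length and GC correction.

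Scn3b encodes beta-3, which binds without a covalent link. Its levels were 20.3, 17.3, 24.6 and 22.4 TPM at ZT20 and 18.5, 14.7 and 12.6 TPM at ZT8. The groups overlapped through ZT20 replicate 2 and ZT8 replicate 1. The log2 difference was 0.45 (95% interval 0.019 to 0.88, limma adjusted p = 0.131), and median-ratio scaling between samples reduced it to 0.23. For Scn3b it was 0.17 under quantile normalization, 0.080 after the length and GC correction and 0.042 relative to the neuron marker mean.

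By mean level the order at ZT20 was Scn10a, Scn9a, Scn1a, Scn11a, Scn4b, Scn2b, Scn8a, Scn3b and Scn3a. Ranges of neighbours in this order overlapped in every case except Scn3b and Scn3a. Within samples, Scn10a was above Scn9a, Scn9a above Scn1a, Scn11a above Scn4b and Scn8a above Scn3b in 4 of 4 ZT20 samples. Scn4b was above Scn2b and Scn2b above Scn8a in 3 of 4, and Scn1a was above Scn11a in 2 of 4. At ZT8 the order was Scn10a, Scn1a, Scn9a, Scn11a, Scn4b, Scn2b, Scn3b, Scn8a and Scn3a. There Scn10a and Scn1a were not separated, with Scn10a the higher in 1 of 3 samples, and Scn9a was above Scn11a without overlap of their ranges. Scn3b was above Scn8a in 3 of 3 ZT8 samples and Scn8a above Scn3b in 4 of 4 ZT20 samples, and this change of order was not tested. Their transcripts differ in length (4150 nt for Scn3b, 11436 nt for Scn8a), and over all genes the difference between the groups moved with length.

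The make-up of the alpha subunits was compared as the share of each gene in the summed TPM of 8 voltage-gated alpha subunit genes (the 6 members with Scn2a and Scn4a), a measure that does not move with the scaling between samples. The sum was 331, 311, 399 and 393 TPM at ZT20 and 213, 184 and 227 TPM at ZT8. Scn10a held 26.5% to 32.2% of it at ZT20 and 26.0% to 32.1% at ZT8, and Scn9a held 22.3% to 25.7% and 20.2% to 23.5%. The share of Scn1a was 17.4%, 18.2%, 17.6% and 20.8% at ZT20 and 31.2%, 16.8% and 32.4% at ZT8. ZT8 replicates 1 and 3 therefore held the largest Scn1a shares, while ZT8 replicate 2 was below all ZT20 samples. Scn11a was at 17.2%, 19.7%, 19.0% and 17.0% at ZT20 and at 13.6%, 19.3% and 9.49% at ZT8, so that its low shares fell in the same ZT8 samples. The tetrodotoxin-resistant genes Scn10a and Scn11a together held 44.2% to 51.0% at ZT20 and 39.6%, 51.4% and 37.3% in the ZT8 replicates, and those ranges overlapped.

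**Figure D2:**
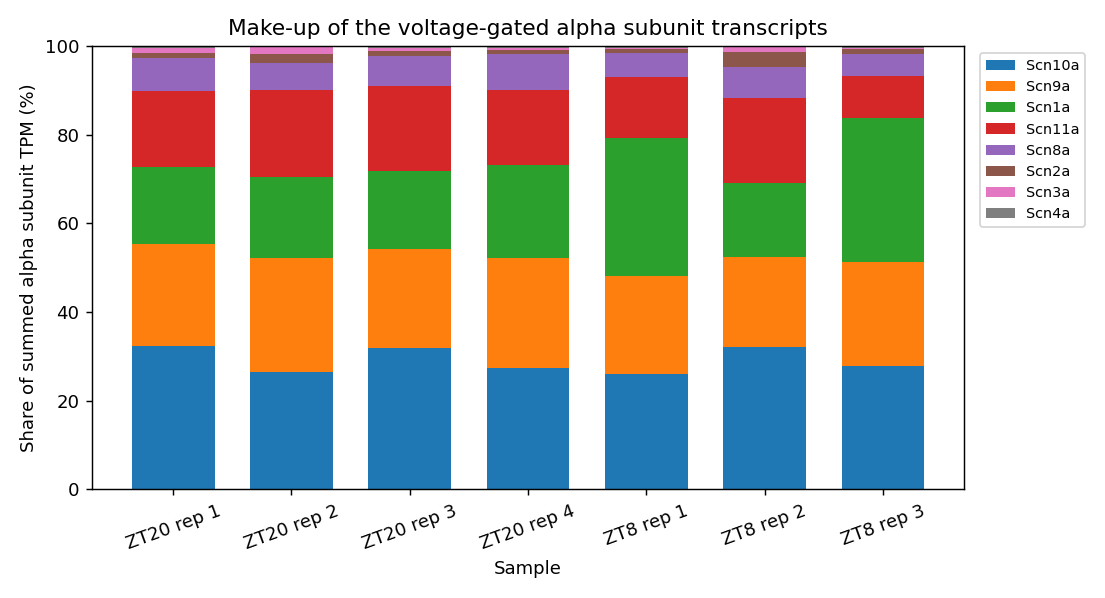
Stacked bars of the share (%) of each of 8 alpha subunit genes in their summed TPM, 1 bar per sample. The Scn1a segment is widest in ZT8 replicates 1 and 3, at 31.2% and 32.4%, and ZT8 replicate 2 resembles the ZT20 bars.

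Other genes of the family were read for comparison. Scn7a encodes Nax, a relative that senses sodium concentration and is not opened by voltage, and it was at 87.5, 98.9, 117 and 130 TPM at ZT20 and at 40.6, 45.7 and 36.3 TPM at ZT8. Its log2 difference of 1.37 (limma adjusted p = 0.00321) passed, and it also passed after the length and GC correction (0.83, limma adjusted p = 0.0141), where none of the 9 members did. With the replicate block added to that correction Scn7a was at 0.76 and did not pass (limma adjusted p = 0.0503). Scn2a, the gene of Nav1.2 of the brain, was at 3.73 to 6.62 TPM at ZT20 and 1.94 to 6.23 TPM at ZT8 (log2 difference 0.41, limma adjusted p = 0.420). Scn4a, the skeletal muscle channel, was at 0.937 to 1.93 TPM at ZT20 and 0 to 1.18 TPM at ZT8 (log2 difference 0.64, limma adjusted p = 0.230).

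The family is made of long transcripts, and length moved with the difference over the whole table. The 6 alpha members had transcripts of 5899 to 11436 nt and the beta members of 4150 to 4982 nt. When the tested genes were split by length into 10 equal groups, the median log2 difference was 0.69 in the longest group, where 36.5% of genes were called higher, and −0.028 in the shortest. Scn1a, Scn3a, Scn8a, Scn9a and Scn10a fell in the longest group, and among them Scn1a was below that median. Scn11a lay in the next group (median 0.56), Scn2b and Scn4b in the one after it (0.47) and Scn3b in the next shorter one (0.36). After the correction the median over the members was 0.24, against −0.0079 over all tested genes. The difference was then 0.62 for Scn11a (limma adjusted p = 0.0737) and 0.74 for Scn4b (adjusted p = 0.0732). It was 0.24 for Scn9a (adjusted p = 0.367), 0.24 for Scn8a (adjusted p = 0.388) and 0.15 for Scn10a (adjusted p = 0.526).

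**Figure D3:**
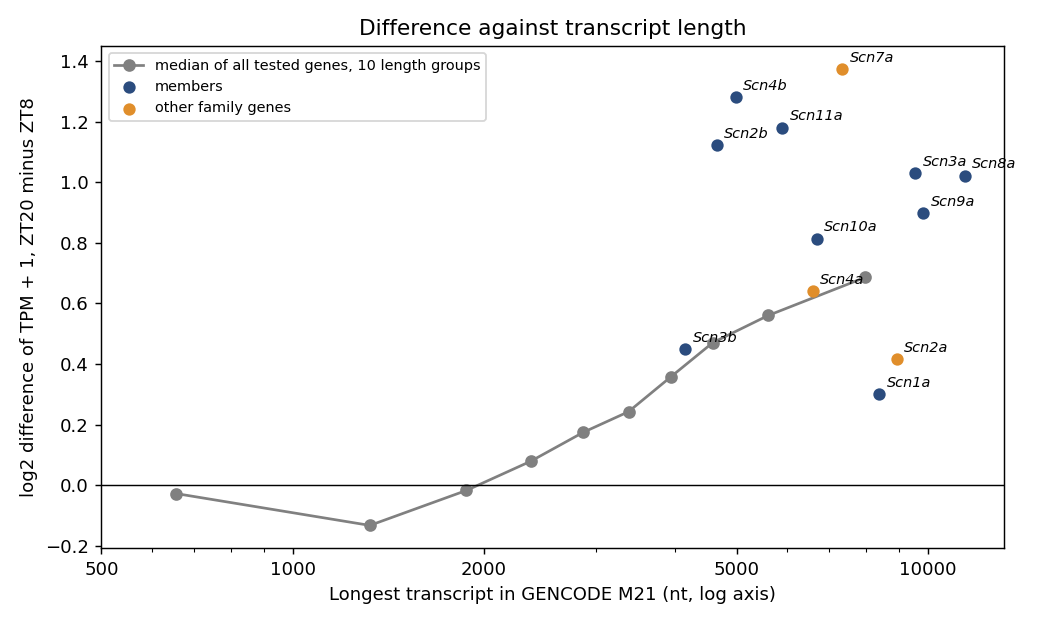
Log2 difference of TPM + 1 (ZT20 minus ZT8) against the longest transcript in nt on a log axis, with the grey line joining the medians of 10 length groups of all tested genes. Scn3b and Scn4a lie near the line, and only Scn1a and Scn2a lie clearly below it.

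Scaling moved the median of all genes from 0.23 to 0.033 when samples were brought to a common median ratio. Scn8a, Scn9a, Scn10a, Scn11a and Scn4b were all called under that scaling, at 0.80, 0.67, 0.58, 0.95 and 1.06, with 7.62% of all tested genes called higher. The same 5 genes were called under quantile normalization, with 6.91% of all tested genes called higher.

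**Figure D4:**
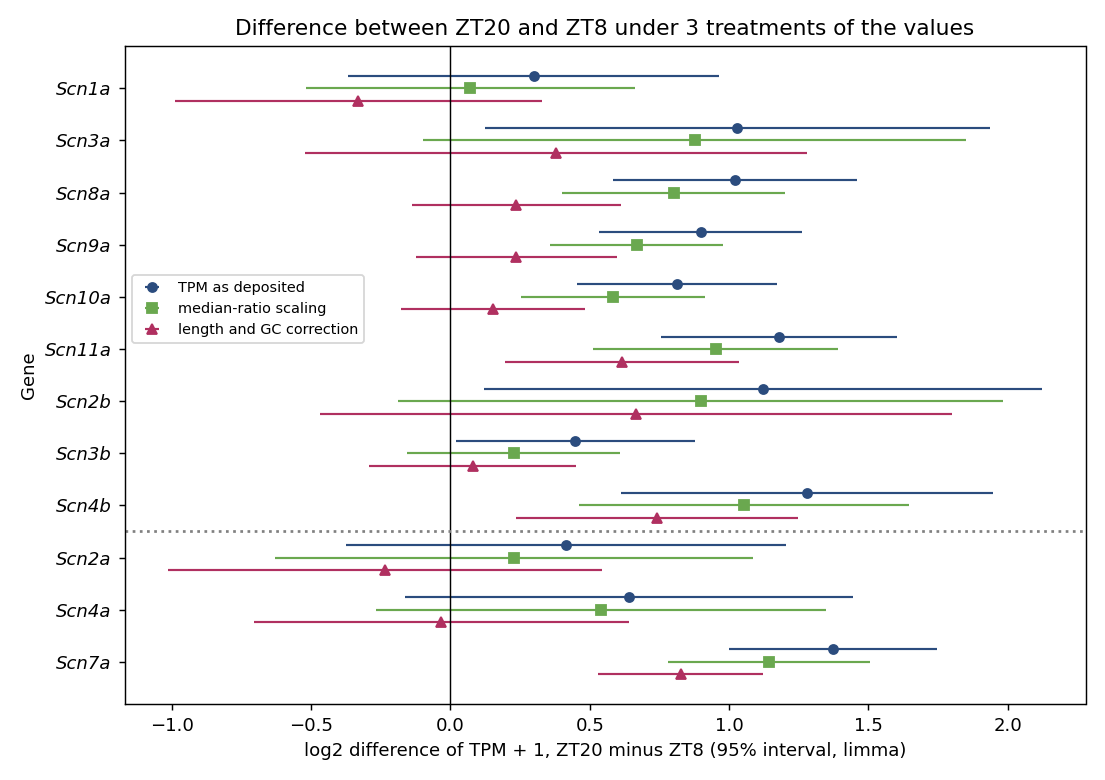
Log2 difference of TPM + 1 (ZT20 minus ZT8) with its 95% interval from limma for the 9 members above the dotted line and 3 other family genes below it, under TPM as deposited (circles), median-ratio scaling (squares) and the length and GC correction (triangles). The intervals of Scn8a, Scn9a and Scn10a leave 0 with both scalings and include 0 after the correction.

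Markers of cell types were read beside the channels, against 12.8% of all tested genes called higher and 3.61% called lower. The mean log2(TPM + 1) of the 12 neuron markers was 9.79 to 9.97 at ZT20 and 9.22 to 9.71 at ZT8, and 2 of the 12 were called higher. Of 10 nociceptor markers 3 were called higher (median log2 difference 0.53, overlapping sums of 4892 to 6853 TPM at ZT20 and 4844 to 5750 TPM at ZT8), and of 8 markers of large-diameter neurons 2 were (median 0.21, sums of 985 to 1103 TPM at ZT20 and 538 to 915 TPM at ZT8). The 6 satellite glia markers summed to 7483 to 9148 TPM at ZT20 and 12760 to 15466 TPM at ZT8, with 3 called lower. The 5 plasma cell markers summed to 267 to 485 TPM at ZT20 and 496 to 933 TPM at ZT8, with 1 of 4 tested called lower. Sums overlapped between the groups for 6 Schwann cell markers (1121 to 1254 and 903 to 1300 TPM) and for 6 macrophage markers (292 to 623 and 315 to 716 TPM), with 1 macrophage marker called lower. The 5 erythroid markers had positive differences (median 0.96) with 0 called, and their sums overlapped (2369 to 6679 and 951 to 9534 TPM). Relative to the neuron marker mean of each sample, a comparison added after the data were seen, the log2 difference was 0.49 for Scn9a (limma adjusted p = 0.0421). On that scale it was 0.62 for Scn8a (adjusted p = 0.0844), 0.41 for Scn10a (adjusted p = 0.125), 0.77 for Scn11a (adjusted p = 0.0777), 0.87 for Scn4b (adjusted p = 0.0509) and −0.11 for Scn1a (adjusted p = 0.755). Of all tested genes 3.39% were called higher on that scale. With the neuronal minus non-neuronal score as a covariate limma called 0 members and 0 of all genes. At an unadjusted limma p-value under 0.05 there were 3 members and 1807 genes. That score was higher in every ZT20 sample than in every ZT8 sample, so this fit could hardly separate it from the group. The part of the cell mix in the differences was not tested. The log2 difference with that covariate was 1.08 for Scn8a, whose standard error went from 0.19 to 0.38, and 1.59 for Scn11a, 0.71 for Scn9a, 0.50 for Scn10a and 0.89 for Scn4b. The median over the members was then 0.89. In bulk RNA, fewer neurons and less RNA per neuron cannot be told apart.

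Genes known to bind, place or remove sodium channels formed a list of 21, all tested. Of these, 9 were called higher, 1 lower, and 11 did not pass, with a median log2 difference of 0.49, against 12.8% higher, 3.61% lower and a median of 0.23 over all tested genes. Ank3, the gene of ankyrin-G, which anchors sodium channels at the axon initial segment and nodes, averaged 80.9 TPM at ZT20 (SD 5.90, n = 4) against 31.3 TPM at ZT8 (SD 9.79, n = 3). Ank3 differed by 1.38 on the log2 scale (limma adjusted p = 0.00577). The largest positive differences were 1.62 for Fgf14, an intracellular FGF homologous factor that binds the channel's tail (5.01 and 0.966 TPM on average), 1.49 for Ank2, which encodes ankyrin-B, and 1.48 for Dpysl2, which encodes CRMP2, a regulator of Nav1.7 trafficking. Pdzd2, a PDZ protein gene, was the only one called lower, by a log2 difference of −0.86 (limma adjusted p = 0.0364), and by −1.66 after the length and GC correction (limma adjusted p = 0.00854). Without the correction, leaving out any 1 replicate other than ZT20 replicate 4 ended the call for Pdzd2 (limma adjusted p = 0.0584 to 0.108). Fgf13, another homologous factor and abundant in these ganglia at 520 and 429 TPM on average, differed by 0.29 (limma adjusted p = 0.193). Nedd4l, the ubiquitin ligase that removes sodium channels from the membrane, differed by 0.44 (limma adjusted p = 0.121), and by −0.20 once length and GC content were corrected for. In that fit 4 of the 21 were called higher, against 3.56% of all tested genes, Fgf14, Ank2 and Dpysl2 among them, and Ank3 was not (0.65, limma adjusted p = 0.0713).

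The nearest profiles were sought outside the family over the 7 samples, as the root mean square difference of log2(TPM + 1) after centring each gene. Among 14800 genes some are near to any profile, so the names are a description only. Nearest to Scn8a were Usp45 (0.039), Sema6d and Mtmr4, and nearest to Scn9a were Tecpr2 (0.060), Upf2 and Snap91. Mcf2l (0.066), Wipf3 and Gm21926 were nearest to Scn10a, and Adam9 (0.099), Dip2c and Foxj2 to Scn11a. For Scn1a they were Ints14 (0.079), Atrx and Plxdc1, and for Scn3a Frat1 (0.18), Ddhd2 and Gm49937. Strn (0.21), Dnase1l3 and Srsf2 were nearest to Scn2b, Wdr6 (0.063), Fam131a and Gm11642 to Scn3b, and St8sia4 (0.13) and Chrna7 to Scn4b. Among the 9 members Scn8a and Scn10a were the nearest pair (0.19), and the members farthest from any other were Scn2b and Scn3a (0.40, each nearest to the other) and Scn1a (0.38, nearest to Scn9a).

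Since the 2 groups stand for different clock times, promoters were searched for 2 motifs read by clock factors, on both strands, in windows of the RefSeq table for GRCm38 that run from 250 bases before to 50 after a gene's start. Windows were found for 7 of the 9 members, 8 windows in all. CACGTG, the E-box read by CLOCK and BMAL1, was in 0 of the 8 and in 7.15% of all 32851 windows. TTATGTAA, a D-box read by DBP, was in 1 of the 8, that of Scn1a, and in 0.938% of all windows.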

How the data were processed

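The authors deposited 1 table of TPM with a column per sample. Per the submitters' processing notes, FastQC 0.11.9, Trim Galore 0.6.6, Salmon 1.6.0, DESeq2 1.34.0 and the build GRCm39 were used, with no role given, and the annotation release is not given in the sources used here. All 7 columns were matched to samples by name, and 0 columns were unused. TPM keeps no depth, so counting error is unknown.

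Values were analysed as log2(TPM + 1) for 14800 genes (minimum mean 1 TPM) with limma 3.58.1 (intensity trend, R 4.3.3) over all 7 samples, two-sided, with Benjamini-Hochberg adjustment over all tested genes. Data were simulated with independent noise per gene and 200 of 14800 genes changed by 1.5 (log2). Of the changed genes 66.0% were recovered, 3.65% of calls were false, and 0 genes were called when none was changed. The called members differed by less (0.81 to 1.28), and trends shared between genes were not simulated. These rates therefore need not hold for the members. Length and GC content came from GENCODE M21 (99.6% of tested genes), and the correction removed each sample's loess trend (span 0.3). Because the table's build differs, no coordinates are given. Members, gene lists and alternatives were chosen with earlier results of these data known. Named were the 9 members, other family genes, the called channel partners with the 3 largest differences each way, Fgf13, Ank3 and Nedd4l, and the 3 nearest profiles per member, and some items under this rule are not reported here. Alternatives were pseudocount, filter, scaling, the length and GC correction, the replicate block, a marker covariate and samples left out. Figures were drawn with matplotlib 3.10.9.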

Additional observations from a re-analysis of the deposited data

How the results depend on the processing

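All 5 called members were also called with a pseudocount of 0.1, a minimum of 5 TPM, median-ratio scaling and quantile normalization, and 4 without a filter. Leaving out 1 replicate gave 2 to 6 called members. Members called numbered 0 after the length and GC correction, 0 with the replicate block and that correction, 0 with the marker covariate, 0 without ZT20 replicates 3 and 4, 0 without ZT20 replicates 2, 3 and 4 (1 ZT20 sample, assumed to vary like the others), and 1 relative to the neuron marker mean. The cause of these changes was not tested.

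Over all genes 2433 were called, 1899 higher and 534 lower. Leaving out 1 replicate gave 624 to 3055, with 543 to 2374 higher and 81 to 681 lower. The numbers were 1178 without a filter (978 and 200), 1303 after the length and GC correction (527 higher, 776 lower), 1128 higher and 1160 lower under median-ratio scaling, 1023 and 814 under quantile normalization, 501 and 1540 relative to the neuron marker mean, and 0 (0 and 0) with the marker covariate, without ZT20 replicates 3 and 4 and without replicates 2, 3 and 4 (1807, 2425 and 1133 at an unadjusted p-value under 0.05).

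The replicate numbers are shared by the groups, but no link between same-numbered samples is given in the sources used here. Deviations of same-numbered samples correlated at −0.0141, 0.153 and 0.083. The replicate block gave 1174 genes (891 and 283), and 510 with the correction (225 and 285). It left 5 members called, with Scn2b (adjusted p = 0.0232) in place of Scn8a (0.0523).

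The sign of Scn1a turned after the length and GC correction (−0.33), with the block and that correction (−0.40), with the covariate (−0.15), relative to neuron markers (−0.11) and without ZT8 replicate 2 (−0.086, the lowest of the fits that left out 1 replicate, of which the highest was 0.53). Under the correction, without and with the block, Scn2a was at −0.23 and −0.12 and Scn4a at −0.032 and −0.057. None of these genes was called in the fits named. Depth is unknown, so for Scn3a and Scn4a counting error could not be given.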
